A study of Homo sapiens with 6 samples.

Results

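The genes described here are 10 that shape or report signalling through the extracellular signal-regulated kinase (ERK) pathway: the dual-specificity phosphatases DUSP1, DUSP4, DUSP5 and DUSP6, the inhibitors SPRY1, SPRY2, SPRY4 and SPRED1, and the transcription factors ETV4 and ETV5. They were chosen by gene symbol, with earlier results of these data known. Each of the 24 Affymetrix HG-U133 Plus 2.0 probe sets annotated to 1 of them is given apart, of 54675 probe sets on the array. They stand for 10 of 19775 named genes. All 24 were bright enough to be tested on their mean over all 6 arrays, 204014_at and 226034_at of DUSP4 through their D20 signals.

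The 6 arrays hold RNA of Hep3B, a human hepatocellular carcinoma cell line, in 2 groups of 3. In the D20 group the cells carried the siSDHB plasmid, made to silence SDHB (a subunit of succinate dehydrogenase, the mitochondrial complex II), and came from clone D20. In the pU6-2 group they carried the control plasmid pU6 and came from its clone 2. Cells of both groups were kept under G418 and harvested close to confluence. Each group is thus a single clone, so the silencing and the clone cannot be told apart, and the labels do not state whether arrays A, B and C of a clone came from separate cultures. The p-values measure only the spread between those arrays, which may be technical.

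Activated ERK phosphorylates nuclear factors that switch on early response genes, and among these are genes whose products turn the pathway down again. Dual-specificity phosphatases remove phosphate from both the tyrosine and the threonine that activate a MAP kinase, Sprouty proteins and their Spred relatives act on the steps between receptor tyrosine kinases, Ras and Raf, and the PEA3 group of ETS factors, to which ETV4 and ETV5 belong, carries the transcriptional response to fibroblast growth factors. In liver the pathway follows growth factors such as EGF, HGF and the FGF family, and it is often active in hepatocellular carcinoma.

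The promoters of DUSP1 and DUSP6 are shown because these genes moved in opposite directions with several probe sets each. They are the 250 bases before the RefSeq start on the minus strand, on GRCh38.p14, at chr5:172771196-172771445 for DUSP1 and chr12:89352502-89352751 for DUSP6, written 5′ to 3′ in the direction of transcription. Capitals mark matches to the motifs searched.
DUSP1: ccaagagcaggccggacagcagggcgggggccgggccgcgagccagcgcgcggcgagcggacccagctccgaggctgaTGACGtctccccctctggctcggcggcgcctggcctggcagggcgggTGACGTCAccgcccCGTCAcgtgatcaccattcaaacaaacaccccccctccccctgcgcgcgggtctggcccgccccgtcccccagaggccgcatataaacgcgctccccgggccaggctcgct
DUSP6: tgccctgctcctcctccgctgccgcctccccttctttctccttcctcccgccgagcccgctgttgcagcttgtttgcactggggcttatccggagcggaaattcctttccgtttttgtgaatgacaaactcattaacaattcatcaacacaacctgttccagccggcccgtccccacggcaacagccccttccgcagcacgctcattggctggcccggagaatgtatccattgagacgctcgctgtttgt
The motifs were the cyclic AMP response element TGACGTCA with its half-site TGACG, the ETS motif CCGGAAG, the AP-1 motif TGANTCA and the CArG box, each on both strands. The DUSP1 window held 1 full element, 125 to 118 bases before the start, and 4 half-sites, of which 2 lie inside the full element, 1 on each strand. The DUSP6 window held no match to any of the 5 motifs. Of 35116 windows of that length from all RefSeq promoters, 1.65% held the full element, 21.2% a half-site, 8.52% the ETS motif, 6.57% the AP-1 motif and 1.16% a CArG box. A match is a description of letters and not of binding. In the other windows found for these genes, 9 windows of 6 genes in all, the matches were 1 half-site each in SPRY2 and SPRY4 and 1 ETS motif in SPRY1.

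On every array the trimmed mean signal was 500.1, and the median signal was 86.2 to 92.4 in D20 and 77.7 to 84.1 in pU6-2. Across the 32768 probe sets tested (features, not independent replicates), log2 signals correlated with a Pearson's r of 0.953 to 0.962 within D20, 0.964 to 0.967 within pU6-2 and 0.88 to 0.89 across the clones. Precision is limited by how few arrays there are. SDHB itself was not analysed here, and the extent of its silencing is therefore unchecked. The 3′ to 5′ signal ratio of the control probe sets was 1.40 to 1.68 in D20 and 1.42 to 1.90 in pU6-2 for beta-actin, and 1.11 to 1.25 in D20 and 1.08 to 1.15 in pU6-2 for GAPDH. The 15 hepatocyte and hepatoma markers analysed, of 16 listed, summed to a signal of 184011.1 to 209946.8 in D20 and of 367892.7 to 376118.6 in pU6-2, and of them 10 were lower and 2 higher in D20. None of them had a mean below 43.2, the lowest mean tested, in either clone. The 8 fibroblast markers summed to 3811.1 to 4616.7 in D20 and 586.8 to 860.0 in pU6-2, with COL3A1, DCN and LUM below 43.2 in D20 and COL1A1 and COL3A1 below it in pU6-2, and of 7 tested 1 was higher and 1 lower. The 4 biliary markers summed to 20835.2 to 23555.5 in D20 and 19519.3 to 20370.4 in pU6-2, with 2 higher and 1 lower in D20. Of the 4 blood cell markers analysed, which summed to 159.9 to 206.2 in D20 and 245.5 to 364.8 in pU6-2, PTPRC and CD3E lay below 43.2 in both clones and ITGAM in D20, and neither of the 2 tested was called. Below 43.2 in both clones were also CDH5, VWF, KDR and TEK among the 5 endothelial markers, which summed to 255.8 to 341.9 in D20 and 112.1 to 176.7 in pU6-2, where the 1 tested was higher in D20. What part these markers have in the results below was not tested.

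Among the phosphatases, DUSP1 and DUSP4 were higher in clone D20 and DUSP6 and DUSP5 were lower. Of the 7 probe sets of SPRY1, SPRY2, SPRY4 and SPRED1, 1 of SPRY1 was higher and the others did not pass, and of the PEA3 factors ETV5 was lower while neither probe set of ETV4 passed the test. Of the 24 probe sets, 6 rose in D20, 7 fell and 11 did not pass limma's test of D20 against pU6-2 at a Benjamini-Hochberg adjusted p below 0.05. Of all 32768 probe sets tested, 36.5% passed it, 19.5% as higher and 17.0% as lower. The 13 probe sets called belong to 6 genes, 3 higher and 3 lower, and no gene had probe sets called in both directions. Probe sets differing at least 2-fold, 5 higher and 5 lower, were those of DUSP4 and DUSP6, 2 of DUSP1 and 2 of ETV5. They are thus repeated measures of few genes. A difference of that size in either direction was found in 41.7% of the 24 and in 17.6% of all 32768 tested. Because the genes were chosen with earlier results of these data known, these shares are a description and not a test. The median log2 difference, D20 minus pU6-2, was -0.26 for the 24 and 0.03 for all.

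**Figure D1:**
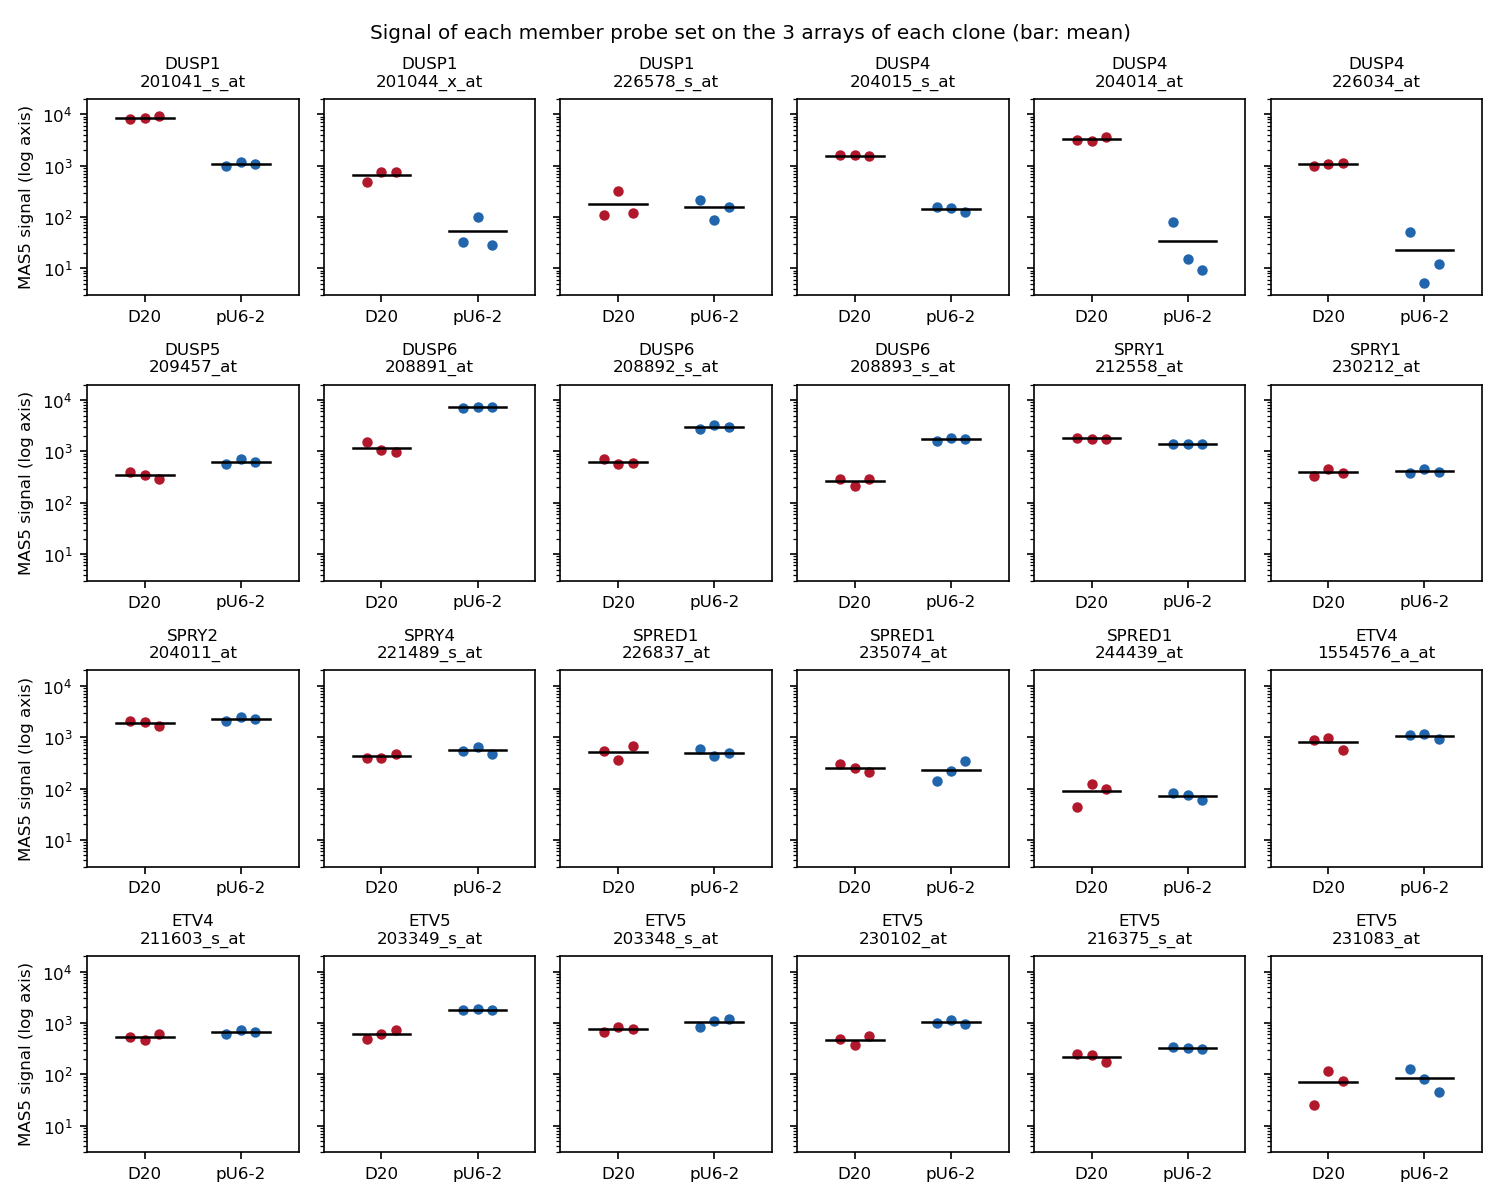
MAS5 signal (log axis) of each of the 24 probe sets on the 3 D20 arrays (left, red) and the 3 pU6-2 arrays (right, blue), with a bar at each clone's mean. The clones stand far apart for DUSP1 (2 of 3 probe sets), DUSP4 and DUSP6.

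DUSP4, also called MKP-2, is a nuclear phosphatase of ERK, JNK and p38 whose gene is itself induced by ERK. Its probe set 204014_at had signals of 3111.4, 3045.0 and 3603.9 in D20, against 79.2, 15.2 and 9.2 in pU6-2. The D20 arrays lay close together while the pU6-2 arrays, all dim, spread widely, and the groups did not overlap. On the log2(signal + 16) scale on which every difference here is given, this is a difference of 6.27 ± 0.38 (SE, n = 3 each; limma, Benjamini-Hochberg adjusted p = 5.7e-08). With 226034_at the signals were 1006.4, 1055.7 and 1148.6 in D20 and 51.1, 5.2 and 12.0 in pU6-2, a log2 difference of 4.99 ± 0.37 (SE). With 204015_s_at they were 1592.0, 1583.4 and 1513.4 in D20 and 156.6, 147.9 and 125.4 in pU6-2, a log2 difference of 3.31 ± 0.15 (SE). The 3 probe sets thus went one way with sizes that differ. In pU6-2 the mean signals of 204014_at and 226034_at, 34.5 and 22.8, were below 43.2, the lowest mean tested over all 6 arrays. Both were thus tested through their D20 signals, and their sizes and p-values rest on the pseudocount. With pseudocounts of 1 and 64, 204014_at gave 7.10 and 5.14, and 226034_at gave 6.05 and 3.74.

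DUSP1, also called MKP-1, is a nuclear phosphatase that acts on p38 and JNK as well as ERK and is an immediate early gene of growth factors and stress. Its brightest probe set, 201041_s_at, had signals of 8268.2, 8658.5 and 9084.5 in D20, against 977.8, 1189.8 and 1057.3 in pU6-2. That is a log2 difference of 3.0 ± 0.10 (SE, n = 3 each), or 7.98-fold (limma, Benjamini-Hochberg adjusted p = 2.9e-10), with every D20 array far above every pU6-2 array. The dimmer 201044_x_at, of a kind that can match several transcripts, had 488.4, 748.5 and 765.9 in D20 and 33.2, 98.2 and 28.1 in pU6-2, and it rose by 3.42 ± 0.35 (SE), or by 3.83 and 2.67 with pseudocounts of 1 and 64. The third probe set, 226578_s_at, had 107.5, 316.4 and 119.2 in D20 and 214.6, 86.7 and 159.3 in pU6-2. Its arrays overlapped, and its log2 difference of 0.14 ± 0.41 (SE) did not pass the test (limma, Benjamini-Hochberg adjusted p = 0.83).

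DUSP6, also called MKP-3, is a cytoplasmic phosphatase selective for ERK whose transcript is widely used as a readout of ERK activity. All 3 of its probe sets were lower in D20. The brightest, 208891_at, had signals of 1549.6, 1065.3 and 960.2 in D20, against 6931.4, 7251.6 and 7371.7 in pU6-2. This is a log2 difference of -2.61 ± 0.14 (SE, n = 3 each; limma, Benjamini-Hochberg adjusted p = 2.8e-08), which makes DUSP6 6.09-fold higher in pU6-2, and no arrays overlapped. The probe set 208892_s_at had 696.8, 570.4 and 596.3 in D20 and 2725.5, 3245.6 and 2985.6 in pU6-2 (log2 difference -2.24 ± 0.12, SE). The probe set 208893_s_at had 292.8, 211.9 and 290.1 in D20 and 1578.8, 1838.3 and 1740.2 in pU6-2 (log2 difference -2.64 ± 0.15, SE). The 3 estimates were alike in size.

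DUSP5, a nuclear phosphatase selective for ERK, fell less. Its single probe set, 209457_at, had signals of 400.9, 348.5 and 288.3 in D20, against 567.8, 707.2 and 624.0 in pU6-2. The groups did not overlap, with a log2 difference of -0.85 ± 0.17 (SE, n = 3 each; limma, Benjamini-Hochberg adjusted p = 0.0018).

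**Figure D2:**
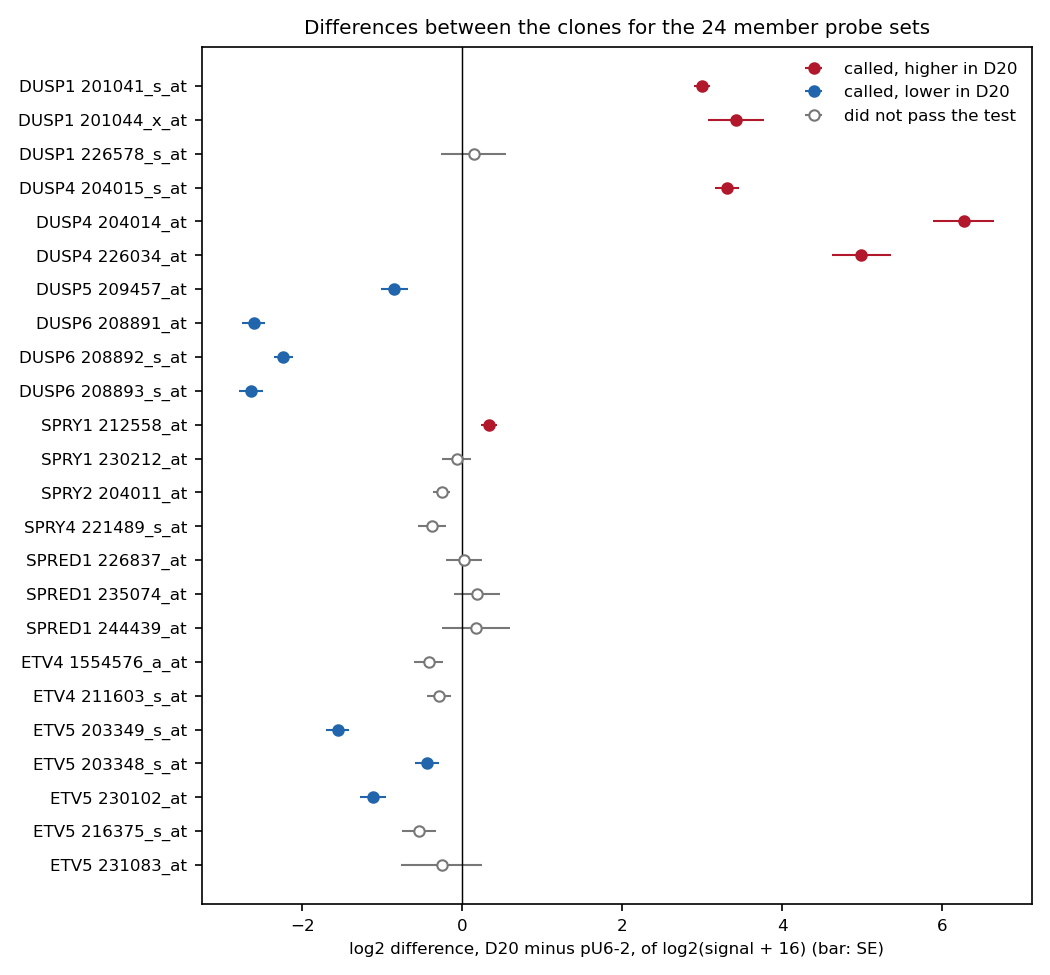
Log2 difference, D20 minus pU6-2, for each of the 24 probe sets with its standard error (bars), filled where limma's Benjamini-Hochberg adjusted p was below 0.05. DUSP4 and 2 probe sets of DUSP1 lie to the right, up to 6.27, DUSP6 and ETV5 to the left, down to -2.64, and the Sprouty, Spred and ETV4 probe sets lie between -0.42 and 0.33.

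The Sprouty genes, whose products block Ras activation downstream of receptor tyrosine kinases, had signals in D20 close to those in pU6-2. SPRY1 had 1860.2, 1777.0 and 1766.3 in D20 and 1426.2, 1424.0 and 1422.7 in pU6-2 with 212558_at, a log2 difference of 0.33 ± 0.10 (SE; limma, Benjamini-Hochberg adjusted p = 0.015). The groups did not overlap, but the difference did not pass the test with each array centred on its median (0.22, adjusted p = 0.15), without the variance trend (adjusted p = 0.057), without pU6-2 array C (adjusted p = 0.056) or without D20 array A (adjusted p = 0.052), limma with Benjamini-Hochberg in each. Its other probe set, 230212_at, had 339.0, 453.1 and 385.6 in D20 and 375.8, 455.7 and 405.4 in pU6-2, with overlapping arrays and a log2 difference of -0.07 ± 0.18 (SE; limma, Benjamini-Hochberg adjusted p = 0.79).

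SPRY2 had 2080.8, 1960.0 and 1636.9 in D20 and 2081.7, 2474.1 and 2223.7 in pU6-2. The highest D20 array and the lowest pU6-2 array nearly touched, and the log2 difference was -0.26 ± 0.11 (SE; limma, Benjamini-Hochberg adjusted p = 0.1). SPRY4 had 397.2, 390.0 and 474.0 in D20 and 535.9, 643.7 and 480.1 in pU6-2, a log2 difference of -0.38 ± 0.17 (SE; limma, Benjamini-Hochberg adjusted p = 0.099). Neither passed the test, although the D20 arrays of both lay just below the pU6-2 arrays. With each array centred on its median both passed it as lower (SPRY2 -0.38, adjusted p = 0.03, and SPRY4 -0.50, adjusted p = 0.036, limma, Benjamini-Hochberg). SPRY4 also passed with quantile normalization (-0.49, limma, Benjamini-Hochberg adjusted p = 0.041). With scaling on spike-in controls SPRY2 was at -0.04 and SPRY4 at -0.16, and neither passed (adjusted p = 0.86 and 0.53, limma with Benjamini-Hochberg).

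SPRED1, which brings the Ras inhibitor neurofibromin to the membrane, overlapped between the clones with all 3 of its probe sets. Its brightest, 226837_at, had 534.4, 357.3 and 671.4 in D20 and 599.2, 425.0 and 483.4 in pU6-2. The 3 log2 differences were 0.02, 0.18 and 0.17, each smaller than its standard error, and the adjusted p was at least 0.68 (limma, Benjamini-Hochberg).

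ETV5, also called ERM, was lower in D20 with 3 of its 5 probe sets. The brightest, 203349_s_at, had 489.4, 609.1 and 732.3 in D20, against 1788.0, 1902.9 and 1749.0 in pU6-2, a log2 difference of -1.56 ± 0.14 (SE, n = 3 each; limma, Benjamini-Hochberg adjusted p = 2.6e-06). With 230102_at the signals were 476.4, 377.5 and 558.2 in D20 and 1014.0, 1124.0 and 949.9 in pU6-2, a log2 difference of -1.12 ± 0.16 (SE). Both pairs of groups were well apart. A smaller fall was measured by 203348_s_at, with 671.7, 826.4 and 759.6 in D20 and 830.7, 1092.1 and 1167.7 in pU6-2, where the groups nearly touched (log2 difference -0.44 ± 0.15, SE; limma, Benjamini-Hochberg adjusted p = 0.037). That call was lost in 7 of 15 alternatives, among them scaling on spike-in controls (-0.22, adjusted p = 0.35) and leaving out any of the arrays pU6-2 B, pU6-2 C, D20 A or D20 C, the adjusted p being 0.07 to 0.17 there (limma, Benjamini-Hochberg). The other 2 probe sets did not pass: 216375_s_at had 253.1, 233.8 and 176.9 in D20 and 347.0, 322.5 and 310.9 in pU6-2 (log2 difference -0.54, limma, Benjamini-Hochberg adjusted p = 0.06), with no overlap between the clones, and the dim 231083_at overlapped between the clones (log2 difference -0.26 ± 0.51, SE). The first of these passed the test as lower with the stricter filter, quantile normalization and median centring (adjusted p = 0.048, 0.022 and 0.027, limma with Benjamini-Hochberg).

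ETV4, also called E1AF or PEA3, had a log2 difference of -0.42 ± 0.18 (SE) with 1554576_a_at and of -0.29 ± 0.15 (SE) with 211603_s_at, neither of which passed the test (limma, Benjamini-Hochberg adjusted p = 0.091 and 0.16). The signals were 898.0, 971.6 and 566.6 in D20 and 1115.5, 1164.6 and 936.3 in pU6-2 for the first, and 535.8, 470.0 and 622.2 in D20 and 603.4, 730.4 and 667.4 in pU6-2 for the second. In each the highest D20 array lay above the lowest pU6-2 array. The first passed the test as lower with median centring (adjusted p = 0.031), with the array letter as a replicate block (adjusted p = 0.02) and without D20 array B (adjusted p = 0.034), limma with Benjamini-Hochberg in each.

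Related genes of the pathway were grouped into 7 lists of 116 genes, of which 95 were tested, each gene by its brightest probe set. Of these 33 were higher and 21 lower in D20 and 41 did not pass the test. Among all 13781 genes tested 44.3% passed, 23.6% as higher and 20.7% as lower. The median log2 difference was 0.09 over the lists and 0.04 over all genes. No test of a list against other genes was made.

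Among the ligands of receptor tyrosine kinases, 6 of 10 tested were higher in D20 and 2 lower, with a median log2 difference of 1.21. EREG, epiregulin, a ligand of the EGF receptor, had 3366.2, 2172.6 and 2735.6 in D20 and 789.8, 792.1 and 823.5 in pU6-2 (log2 difference 1.74). The growth factors FGF2 (2.32) and PDGFB (2.06) rose, both dim in pU6-2, and their sizes at a pseudocount of 64 were 1.77 and 1.58. FGF19, an FGF that controls bile acid synthesis in liver, had 11.2, 25.6 and 9.7 in D20 and 77.0, 160.1 and 126.0 in pU6-2 (log2 difference -2.11). NRG1, neuregulin, a ligand of ERBB3 and ERBB4, had 10.3, 7.7 and 2.2 in D20 and 238.3, 209.7 and 298.3 in pU6-2 (log2 difference -3.54), and only 1 of its 3 probe sets passed the test, their average being -1.35. The groups did not overlap for any of these 5 genes, but FGF19 and NRG1, the 2 ligands counted as lower, were near the bottom of the scale in D20. Their D20 means, 15.5 and 6.73, were below the lowest mean tested, so both were tested through their pU6-2 signals. With a pseudocount of 64 their differences went to -1.20 and -2.14.

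Of 15 receptors tested 5 were higher and 5 lower. FGFR2 had 10197.3, 10192.4 and 11607.4 in D20 and 3243.0, 3125.7 and 3653.3 in pU6-2 (log2 difference 1.67), higher with 5 of its 7 probe sets. AXL, the receptor of GAS6, had 431.6, 531.2 and 603.7 in D20 and 54.9, 40.4 and 13.3 in pU6-2, where its mean of 36.2 was below the lowest mean tested. Its log2 difference of 3.45 was 4.01 with a pseudocount of 1 and 2.56 with 64. ERBB2 rose by 0.71, or by 1.10 averaged over its 2 probe sets. KLB, which encodes beta-Klotho, a co-receptor of FGF19, had 1651.4, 1534.0 and 1577.6 in D20 and 6736.1, 6566.9 and 7445.8 in pU6-2 (log2 difference -2.11), and FGFR4 fell by 0.67 on the log2 scale, with 2 of its 3 probe sets called. Without pU6-2 array A 3 receptors were lower in place of 5.

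Of 17 tested genes of the cascade from receptor adaptors to kinases, 6 were higher and 2 lower. RPS6KA5 (log2 difference 1.39), which encodes the histone kinase MSK1, the docking protein GAB1 (1.11), RPS6KA1 (0.95), which encodes RSK1, the ERK kinase gene MAP2K1 (0.88) and the Ras exchange factor SOS2 (0.79) rose. Averaging over probe sets gave 0.83 for RPS6KA5, with 1 of 2 called, and 0.66 for GAB1, with 4 of 6 called. The 2 lower were SHC1 (-0.60) and GRB2 (-0.35), named after their values were seen, both adaptors. Neither was called with scaling on spike-in controls or without the variance trend, where 0 genes of this list passed the test as lower, and with median centring 7 did. Without pU6-2 array B or C 1 gene was lower.

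Of 21 other ERK-induced genes tested 7 were higher and 2 lower. JUNB, an AP-1 subunit, had 1954.4, 2330.6 and 1576.2 in D20 and 378.9, 543.2 and 446.4 in pU6-2 (log2 difference 2.06). The urokinase receptor gene PLAUR (1.37), the early response gene IER3 (1.19) and HBEGF (0.91), a ligand of the EGF receptor, rose too. CCND1, cyclin D1, had 325.9, 194.9 and 212.4 in D20 and 860.1, 820.8 and 732.2 in pU6-2 (log2 difference -1.69), so the groups were apart. Of the 2 tested probe sets of CCND1 1 was called, their average being -1.16. HBEGF did not pass the test without D20 array C (limma, Benjamini-Hochberg adjusted p = 0.055), and without that array 4 genes of the list were higher in place of 7.

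Among negative regulators of Ras, 4 of 10 tested genes were higher and 4 lower. IL17RD, also called Sef, a membrane inhibitor of FGF signalling, had 610.9, 633.8 and 724.6 in D20 and 118.5, 142.2 and 114.1 in pU6-2 (log2 difference 2.26). Only 1 of its 2 tested probe sets was called, their average being 1.56. The Ras GTPase-activating proteins RASA2 (1.24) and RASAL2 (1.04, or 0.64 averaged over its 4 probe sets) rose and PEBP1, the Raf kinase inhibitor protein, fell (-0.80). SPRED2, a relative of SPRED1, named after its values were seen, had 2759.6, 2436.9 and 2337.1 in D20 and 3809.2, 3684.8 and 3515.7 in pU6-2, a log2 difference of -0.55 ± 0.09 (SE; limma, Benjamini-Hochberg adjusted p = 0.00051). LRIG1, a receptor inhibitor, had 1 probe set lower (-0.78) and 1 higher, with a gene mean of 0.12, so its direction is not settled.

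In the other ETS genes 3 of 13 tested were higher and 3 lower. ETV1, the remaining PEA3 factor, had 811.8, 611.9 and 529.1 in D20, against 3450.0, 2177.6 and 2450.6 in pU6-2 (log2 difference -2.02 ± 0.18, SE; limma, Benjamini-Hochberg adjusted p = 2.1e-06), and 4 of its 5 probe sets were lower. Averaged over its probe sets ETV1 was at -1.02. ELF3 rose (0.79), with 1 of its 3 probe sets called and an average of 0.47, and ELK3 fell (-0.80). EHF, whose mean of 26.4 in D20 was below the lowest mean tested, against 127.1 in pU6-2, fell by 1.73, with -2.21 at a pseudocount of 1 and -1.06 at 64. Of the 2 tested probe sets of EHF 1 was called, their average being -1.39. ELK4 was higher with its brightest probe set (1.11) and lower with another of its 6, and averaging them gave -0.12. Averaged over its 2 probe sets, ELK3 was at -0.23 and did not pass the test (limma, Benjamini-Hochberg adjusted p = 0.33).

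Among 9 other phosphatases of the DUSP family tested, 2 were higher and 3 lower. DUSP9, or MKP-4, a phosphatase of ERK, had 1204.7, 1140.9 and 1092.7 in D20 and 2368.5, 2711.0 and 2456.0 in pU6-2 (log2 difference -1.12). DUSP22 (0.89) and DUSP23 (0.67), small atypical family members, rose, and DUSP3 (-0.47) and DUSP14 (-0.31) fell. DUSP3 and DUSP14 did not pass the test with scaling on spike-in controls, and averaging the probe sets of DUSP3 gave -0.17. DUSP14 also did not pass without any 1 of the arrays pU6-2 A, B or C or D20 A or C (limma, Benjamini-Hochberg adjusted p of 0.064 to 0.14). DUSP23 did not pass without pU6-2 array C or D20 array B (adjusted p = 0.073 and 0.067, limma with Benjamini-Hochberg), which left 1 gene of the list higher.

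**Figure D3:**
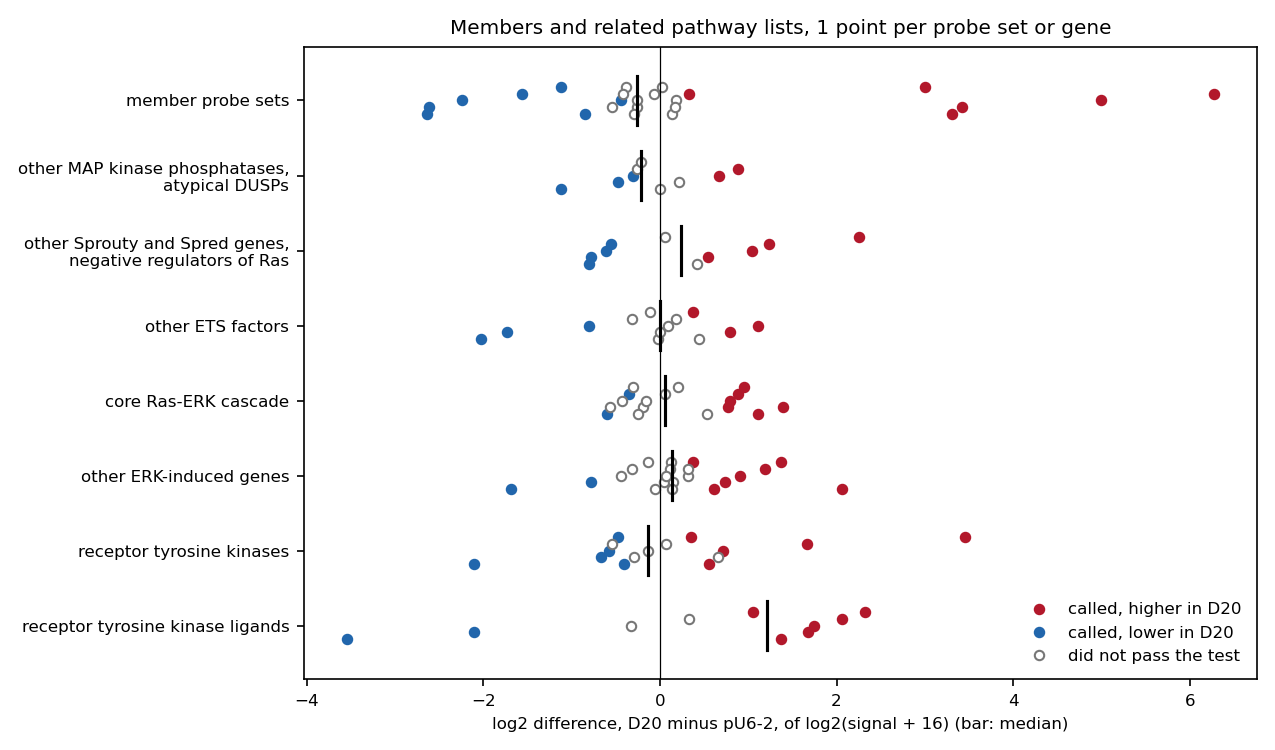
Log2 difference, D20 minus pU6-2, of the 24 probe sets described here (top row) and of the tested genes of 7 related lists, filled where limma's Benjamini-Hochberg adjusted p was below 0.05, with a bar at each row's median. Each row holds points on both sides of 0, the ligands having the highest median (1.21). The top row shows every probe set, from -2.64 to 6.27, and the other rows 1 probe set a gene, so their spreads are not comparable.

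The genes that neighbour the 10 on their chromosomes were measured as well, the 10 tested genes on each side by order in RefSeq. For comparison, 23.6% of all 13781 genes tested were higher and 20.7% lower. Around DUSP6, 11 of 20 neighbours were lower in D20 and 0 higher, with a median log2 difference of -0.74, against -2.61 for DUSP6 itself with its brightest probe set. Around DUSP4 11 of 20 were higher and 2 lower (median 0.54, against 3.31 for DUSP4), and around DUSP1 9 were higher and 1 lower (median 0.44, against 3.0 for DUSP1). Single neighbours ran from -5.28 to 0.53 around DUSP6, from -0.88 to 2.86 around DUSP4 and from -0.35 to 4.68 around DUSP1. These ranges reached past DUSP6 and DUSP1 themselves. The lowest neighbours of ETV5 and DUSP5, at -1.87 and -2.37, also lay below those genes. The medians around ETV5 and DUSP5, which were at -1.56 and -0.85, were -0.01 and -0.12, with 6 higher and 4 lower around ETV5 and 3 higher and 2 lower around DUSP5. The part that the surrounding stretch has in the differences of DUSP6, DUSP4 and DUSP1 was not tested. SPRED1, at 0.02, had neighbours with a median of 0.63, of which 9 were higher and 3 lower.

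**Figure D4:**
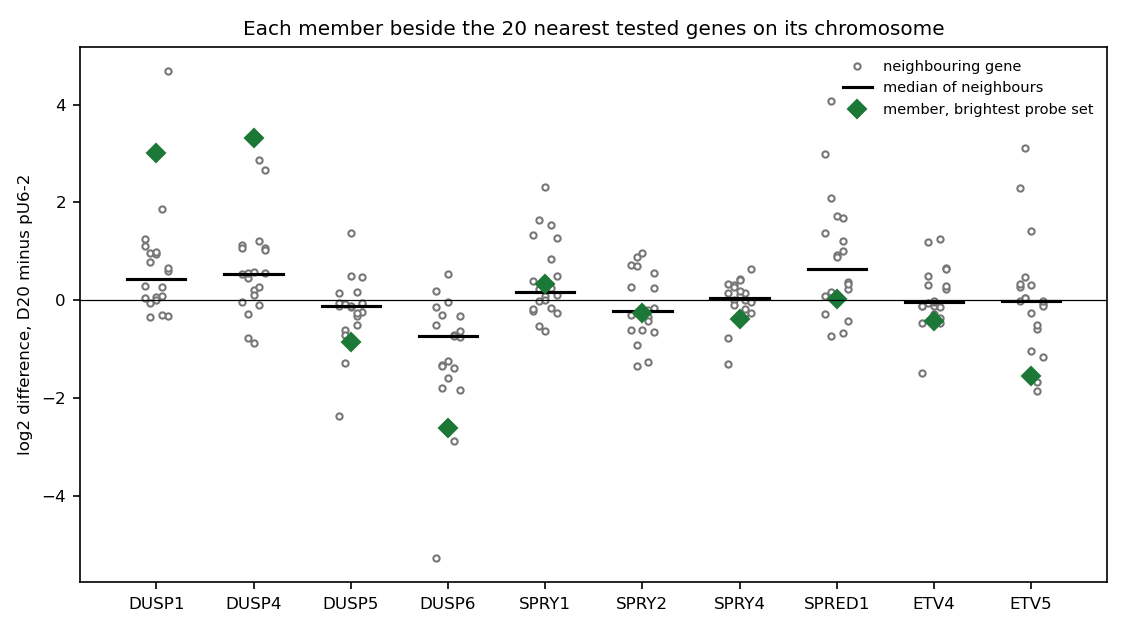
Log2 difference, D20 minus pU6-2, of each of the 10 genes by its brightest probe set (diamonds). Circles are the 10 tested genes on each side of that gene, by order on its chromosome, and bars are their median. The circles around DUSP6 lie mostly below 0, with a median of -0.74, and those around DUSP1 and DUSP4 mostly above, while ETV5 and DUSP5 lie below medians near 0.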

How the data were processed

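RNA of clone D20 and of clone pU6-2 was hybridised to 3 HG-U133 Plus 2.0 arrays each, and groups were taken from the titles. The deposited values are intensity values, MAS5 signals on a linear scale, 1 per probe set and array. They were made with MAS5, per the submitters' processing notes. Not given in the sources used here were its version and scaling target. The platform annotation held by GEO named the probe sets, with symbols brought up to date by Entrez identifier (RefSeq, GRCh38.p14): 41091 had 1 symbol, 1801 several and 11721 none. No member probe set had several symbols. Some genes of the lists are not analysed here.

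Signals were transformed to log2(signal + 16). The 62 control probe sets and the dimmest 40% of the rest, 21845 probe sets, were left out on the mean over all 6 arrays, which left 32768. Differences were tested with limma 3.58.1 in R 4.3.3 (lmFit, eBayes with a variance trend, two-sided), adjusted by Benjamini-Hochberg over all 32768 at 0.05. A gene of a related list was represented by its brightest probe set, those ending in _x_at last. Named were every member probe set, up to 5 called genes of each list with the largest differences, and ACTB and GAPDH. The fit was tested on simulated data. The members and lists were chosen with earlier results of these data known. The array letters showed no sign of pairing the clones. Deviations from the group means correlated at -0.0213, 0.0519 and 0.0074 for A, B and C, and at -0.0585 to 0.0521 between unlike letters.

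Alternatives were pseudocounts of 1 and 64, no filter or one of 60%, quantile normalization, median centring, scaling on 24 poly-A spike-in probe sets, no variance trend, the replicate block, leaving out each array, averaging the probe sets of a gene, and leaving out _s_at and _x_at probe sets. Promoter windows are from RefSeq and were found for 6 of the 10 genes.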

Additional observations from a re-analysis of the deposited data

How the results depend on the processing

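The called differences of DUSP1, DUSP4, DUSP5, DUSP6 and, with 203349_s_at and 230102_at, ETV5 kept their direction and their call under all 15 alternatives run on them. Scaling on the spike-in controls moved the median log2 difference of all probe sets to 0.24 and median centring moved it to -0.09, against 0.03, and the share of called probe sets that were higher in D20 was 73.2% and 42.0%, against 53.5%. SPRY1, SPRY2, SPRY4, ETV4 and the lesser ETV5 probe sets are within the reach of these shifts. Over 61 single probe sets and 910 values, 33 lost a call, 9 gained one and 0 called values reversed. The control gene ACTB, at 0.28, was itself called higher in D20 (limma, Benjamini-Hochberg adjusted p = 0.04). It was called in 7 of 15 alternatives (limma with Benjamini-Hochberg adjusted p of 1.1e-04 to 0.2). GAPDH, at 0.04, was not called, and it was called in 0 alternatives (adjusted p of 0.08 to 0.96).

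Without probe sets ending in _s_at or _x_at, 13 of the 24 remain by construction, of which 6 were called, 3 higher and 3 lower. With median centring 11 of the 24 were lower. With the replicate block 14 of the 24 were called, 6 higher and 8 lower. The block is reported although the letters showed no sign of pairing the clones. In the lists the counts that moved by over 1.5 times were these. Without the variance trend 1 other phosphatase was higher and 1 lower, 0 cascade genes were lower and 3 receptors were lower. With spike-in scaling 1 other phosphatase, 0 cascade genes and 2 receptors were lower and 12 ERK-induced genes were higher. With median centring 7 cascade genes were lower. With averaged probe sets per gene 2 negative regulators and 3 receptors were lower. With the stricter filter 0 ligands were lower, since FGF19 and NRG1 were then too dim to be tested. Leaving out each array in turn gave 1 to 2 other phosphatases higher (1 without pU6-2 C or D20 B), 1 to 3 cascade genes lower (1 without pU6-2 B or pU6-2 C), 4 to 7 ERK-induced genes higher (4 without D20 C) and 3 to 6 receptors lower (3 without pU6-2 A). The cause of these moves was not tested. The signals near the bottom of the scale, among them DUSP4 (204014_at, 226034_at) and AXL in pU6-2 and EHF, FGF19 and NRG1 in D20, limit how large a fold can be stated.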

Other observations

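The control genes of the arrays were measured beside the phosphatases. GAPDH had signals of 32436.3, 42939.9 and 38720.3 in D20, against 35413.7, 36882.0 and 38140.8 in pU6-2. ACTB had 52992.5, 70235.2 and 65562.1 in D20, against 50606.8, 52574.9 and 51723.2 in pU6-2, with more spread between the D20 arrays. It was called higher in D20, as given above.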
